A study of Trichoderma guizhouense with 100 samples.

Results

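The antioxidant and redox enzymes of the filamentous fungus *Trichoderma guizhouense* NJAU4742 are described here across all 34 groups of a transcriptome series. Members were the genes whose deposited description contains catalase, superoxide dismutase, peroxiredoxin, thioredoxin, glutaredoxin, glutathione or peroxidase, leaving out rows with mitochond or disulfide isomerase. Of 11244 genes, 78 held one of the words and 76 were members. The 2 left out were both annotated as mitochondrial, a peroxiredoxin and a manganese superoxide dismutase, so no peroxiredoxin is among the members. By their descriptions the members comprise 9 catalases, 4 superoxide dismutase genes (1 of them a copper chaperone), 1 glutathione peroxidase, 2 thioredoxin reductases, 5 thioredoxins, 5 glutaredoxins, 2 enzymes of glutathione synthesis and reduction, 32 glutathione transferases, 8 other glutathione proteins and 8 other peroxidases. The roles follow the deposited annotation, and several of its names were taken over from proteins of *Aspergillus*, *Neurospora* or *Fusarium*.

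Mycelium of the wild type (WT) and of the deletion mutants ∆Tgxyr1, ∆Tgace1 and ∆Tgace2 was grown on glucose, washed and moved to xylan, to Avicel (microcrystalline cellulose) or to medium with no carbon source (carbon starvation, CS). RNA was taken on glucose at 0 h and at 4 h, 24 h and 72 h after the move. ∆Tgxyr1 (30 libraries) and WT (28 libraries) were sampled in all 10 conditions, and ∆Tgace1 and ∆Tgace2 (21 libraries each) on glucose, xylan and Avicel only. There were 3 libraries per group, and 2 for WT under CS at 4 h and for WT under CS at 72 h. In each mutant the gene of a transcription factor was replaced by the hygromycin resistance gene *hph*, which WT lacks, and whether a mutant is a single clone is not given in the sources used here. The study calls the libraries of a group biological replicates.

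Catalases split hydrogen peroxide into water and oxygen, and catalase-peroxidases can in addition use it to oxidise other substrates. Superoxide dismutases make hydrogen peroxide from superoxide. Glutathione and thioredoxin carry reducing power from NADPH through glutathione reductase and thioredoxin reductase to peroxidases, glutaredoxins and transferases, of which the transferases join glutathione to reactive compounds.

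Levels are in RPKM, which are reads scaled to gene length and library size, and were compared as log2(RPKM + 1) in a single limma model with a mean for each of the 34 groups. A call, higher or lower, required that the Benjamini-Hochberg adjusted p was 0.01 or less, that the log2 difference reached 2 in size and that the group with the higher level averaged over 2 RPKM. The added 1 RPKM makes fold changes of low genes look smaller than they were. Of the 76 members, 69 exceeded 1 RPKM in 2 or more libraries and were tested along with the rest of 10026 such genes. The read number behind a value is unknown, with relative depths of 0.367 to 2.71 of the median library judged from the steps between low values. Per library, the RPKM of all genes added up to between 553844, in WT under CS at 72 h, and 3295522, in ∆Tgxyr1 on Avicel at 24 h. Under CS at 24 h the totals were 2292492 to 3010430 in ∆Tgxyr1, against 1077217 to 1198960 in WT. What these totals contribute to the differences was not tested. Precision rests on the spread between libraries alone. TgXyr1 (OPB38038) reached at most 0.168 RPKM in ∆Tgxyr1, where 23 of 30 libraries were listed at 0, against 1.29 to 143 RPKM in WT. The gene annotated as ACEII (OPB44681) reached at most 0.163 RPKM in ∆Tgace2, with 20 of 21 libraries listed at 0, against 1.59 to 8.09 RPKM in WT. Of the 100 libraries, 9 had their highest correlation with a library of another group. WT Avicel 72 h replicate 2 was closest to a WT library under CS at 72 h, and ∆Tgace1 glucose 0 h replicate 3, ∆Tgace1 Avicel 4 h replicate 2, ∆Tgace1 xylan 24 h replicate 2, ∆Tgace1 Avicel 24 h replicate 1 and ∆Tgace1 Avicel 72 h replicate 3 were also among the 9. The first 3 of these ∆Tgace1 libraries were closest to libraries of another mutant, ∆Tgace2, with correlations of 0.948, 0.965 and 0.972. The gene deleted in ∆Tgace1 was not analysed here. For many calls lost without 1 library, the log2 difference that was left is given below. Where that difference was still 2 or more, the adjusted p was no longer at or below 0.01. Not every such loss is named. Of 262 calls, 70 were lost at least once in this way, so a call without a remark was not always kept. A value alone in parentheses is a log2 difference, and every adjusted p comes from the limma fit.

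The members spanned a wide range of levels. Averaged over the 100 libraries, 13 members lay at 100 RPKM or above, 27 between 10 and 100, 18 between 1 and 10 and 18 below 1. The highest were the glutathione peroxidase OPB37360 (716 RPKM), the thioredoxin-like protein OPB44817 (437 RPKM), the glutaredoxin OPB43849 (411 RPKM), the glutathione transferase OPB43821 (335 RPKM) and the catalase-peroxidase OPB43868 (218 RPKM). The 7 members that did not pass the filter on low values were the catalases OPB37380, OPB40739 and OPB45111, the glutathione transferases OPB45400, OPB46988 and OPB41302 and the heme peroxidase OPB41857.

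In WT after the move from glucose, 27 of the 69 tested members were called in at least 1 of the 9 comparisons with 0 h, against 31.5% of all genes tested. Glucose cultures were sampled at 0 h only. The change of carbon source therefore cannot be told apart from the wash, the fresh medium or the time in culture. A catalase-peroxidase was higher on Avicel and under CS at every time, a microsomal glutathione transferase was lower at every time on every substrate, and cytochrome c peroxidase was lower in 7 comparisons. A thioredoxin reductase was lower on Avicel at 24 h and at every time of CS. All 9 comparisons share the same 3 WT glucose libraries.

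On xylan, 9 members were higher and 9 lower than at 0 h at 1 or more times, beside 13.5% and 9.19% of all genes. At 4 h there were 5 higher (6.33% of all genes) and 2 lower (4.23%), at 24 h 4 higher (4.58%) and 6 lower (3.14%), and at 72 h 4 higher (8.94%) and 7 lower (7.44%). On Avicel, 7 members were higher and 8 lower at 1 or more times, beside 8.67% and 7.60% of all genes. At 4 h there were 2 higher (4.19%) and 3 lower (2.81%), at 24 h 6 higher (6.88%) and 7 lower (7.05%), and at 72 h 3 higher (2.85%) and 2 lower (2.21%). Under CS, 7 members were higher and 13 lower at 1 or more times, beside 10.3% and 11.7% of all genes. At 4 h there were 3 higher (3.78%) and 7 lower (3.30%), at 24 h 3 higher (5.97%) and 7 lower (6.36%), and at 72 h 5 higher (7.62%) and 10 lower (10.6%). The median log2 difference of the tested members ran from -0.46 to 0.13 over the 9 comparisons, and that of all genes from -0.02 to 0.06. Lower members made up 8.70% of those tested on xylan at 24 h and 10.1% under CS at 4 h, above the shares of all genes given beside these counts, and in the other comparisons the members' shares lay nearer to those of all genes.

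**Figure D1:**
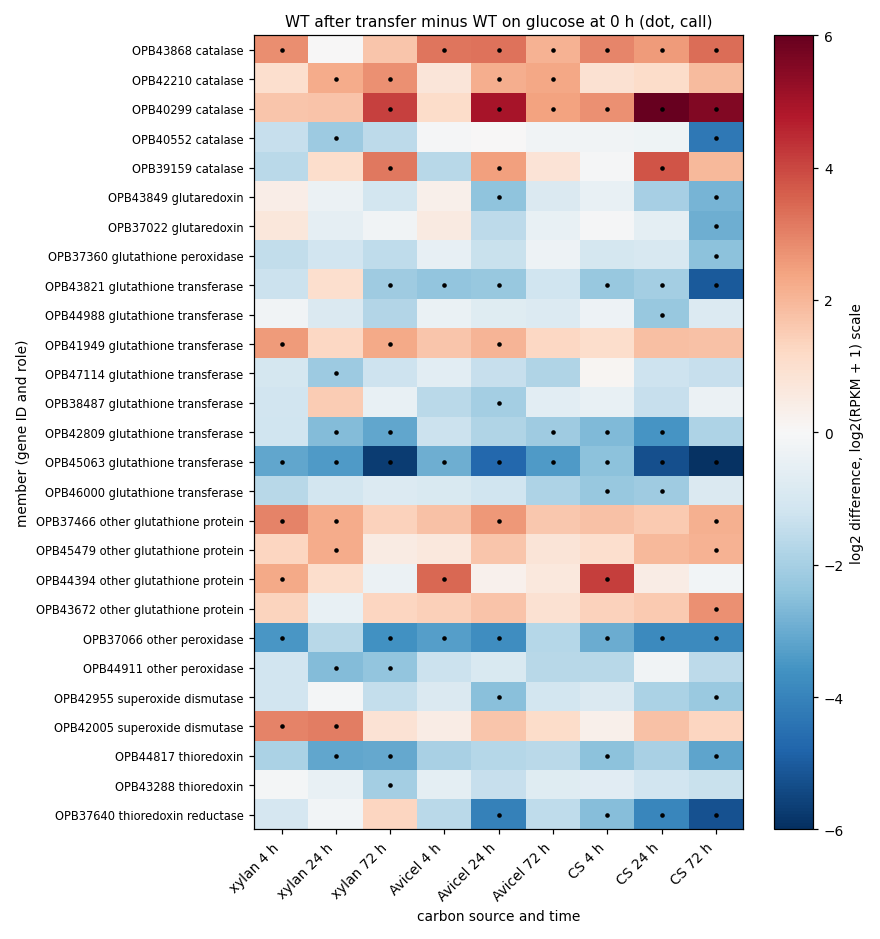
Log2 differences, on the log2(RPKM + 1) scale, of the 27 members called in WT in at least 1 comparison (rows, gene ID and role) between each condition after the move and WT on glucose at 0 h (columns, carbon source and time). Red is higher and blue lower than at 0 h, and a dot marks a call. The microsomal glutathione transferase OPB45063 is blue with a dot in all 9 columns, and the catalase-peroxidase OPB43868 is red with a dot in 7.

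The catalase-peroxidase OPB43868, named after katG of *Aspergillus oryzae*, was called higher than on glucose in 7 of the 9 WT comparisons. On glucose at 0 h the 3 libraries had 33.5, 36.5 and 18.5 RPKM, and on xylan they had 214, 175 and 225 RPKM at 4 h, 33.8, 23.5 and 31.5 RPKM at 24 h and 85.6, 87.8 and 107 RPKM at 72 h. The rise on xylan was called at 4 h (log2 difference 2.80, standard error 0.37, adjusted p = 2.1e-09), and at 24 h the xylan and glucose libraries overlapped. On Avicel it had 244, 267 and 291 RPKM at 4 h and 281, 272 and 295 RPKM at 24 h, and under CS at 72 h they were 309 and 293 RPKM. Every one of these libraries lay above those on glucose, with the largest difference under CS at 72 h (log2 difference 3.36, standard error 0.42, adjusted p = 2.55e-10). On Avicel at 72 h the 3 libraries were spread over 148, 263 and 50.1 RPKM, and the call there was lost without replicate 2 (1.57), without replicate 1 (1.99) or without glucose replicate 3 (1.81).

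The catalase OPB42210 was called from 24 h on. It had 72.0, 66.6 and 69.1 RPKM on glucose at 0 h, then 132, 144 and 138 RPKM at 4 h, 334, 269 and 376 RPKM at 24 h and 483, 448 and 488 RPKM at 72 h on xylan. The libraries of successive times did not overlap, and the calls were at 24 h (log2 difference 2.21, standard error 0.23, adjusted p = 8.36e-13) and 72 h (log2 difference 2.75, standard error 0.23, adjusted p = 3.08e-17). On Avicel it was called at 24 h, with 320.4, 305 and 334 RPKM against the glucose values above (log2 difference 2.19, standard error 0.23, adjusted p = 6.15e-13), and at 72 h (log2 difference 2.30, standard error 0.23, adjusted p = 8.37e-13). Under CS it was not called, although the 72 h libraries had 263 and 254 RPKM (log2 difference 1.89, standard error 0.25, adjusted p = 2.29e-09).

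A second catalase, OPB40299, was almost silent on glucose. It had 90.5, 94.4 and 94.6 RPKM under CS at 24 h, against 0.498, 0.257 and 0.454 RPKM on glucose (log2 difference 6.07, standard error 0.61, adjusted p = 2.81e-13), the largest rise of any member in WT. At CS 72 h it had 68.7 and 62.9 RPKM, on Avicel at 24 h 50.6, 49.6 and 29.2 RPKM and on xylan at 72 h 24.3, 20.5 and 24.5 RPKM, all called. Its libraries disagreed under CS at 4 h, with 24.6 and 2.37 RPKM, and on Avicel at 72 h, with 2.24, 38.7 and 2.32 RPKM. These calls were lost without WT CS 4 h replicate 1 (1.27) and without WT Avicel 72 h replicate 2 (1.23).

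Catalase-1 (OPB39159) takes its name from CAT-1 of *Neurospora crassa*, an enzyme abundant in conidia of that species. It was called higher in WT on xylan at 72 h, with 45.4, 28.3 and 40.1 RPKM against 3.76, 4.78 and 1.83 RPKM on glucose (log2 difference 3.16, standard error 0.56, adjusted p = 1.42e-06). The other calls were on Avicel at 24 h, with 28.1, 28.8 and 13.9 RPKM (log2 difference 2.46, standard error 0.56, adjusted p = 0.000129), and under CS at 24 h, with 55.4, 59.2 and 59.7 RPKM (log2 difference 3.79, standard error 0.56, adjusted p = 3.18e-08). At 4 h on xylan and Avicel it lay below every glucose library, at 0.110 to 0.664 RPKM, without passing the limits. The conidiation-specific protein 10 gene (OPB41395), a marker of spore formation named after *N. crassa*, had 32.2 to 69.9 RPKM in WT under CS at 24 h, 0 to 32.5 RPKM on Avicel at 24 h and 0 RPKM in every library on xylan at 72 h and on glucose at 0 h. Summed over 7 genes whose descriptions concern conidia or spores, OPB41395 among them, WT libraries had 130 to 162 RPKM under CS at 24 h, 102 to 134 RPKM on Avicel at 24 h and 143 to 158 RPKM on xylan at 72 h, against 63.3 to 70.9 RPKM on glucose at 0 h. The part of spore formation in the levels of OPB39159 and OPB40299 was not tested. In RNA from whole cultures, fewer cells of a type and less RNA per cell cannot be told apart.

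The bifunctional catalase/peroxidase OPB40552 was lower than on glucose in 2 comparisons. Under CS at 72 h it had 4.16 and 4.53 RPKM, against 127, 124 and 73.5 RPKM on glucose (log2 difference -4.31, standard error 0.61, adjusted p = 7.51e-09), while at 4 h and 24 h of CS it stayed between 85.6 and 92.8 RPKM. On xylan at 24 h it had 28.8, 13.5 and 29.1 RPKM and was called lower (log2 difference -2.17, standard error 0.54, adjusted p = 0.000656), a call lost without WT xylan 24 h replicate 2 (-1.82). On Avicel at 72 h replicates 1 and 3 had 297 and 249.5 RPKM and replicate 2 had 9.74 RPKM, near the level of CS at 72 h. OPB47062, the sixth catalase tested, exceeded 1 RPKM in 11 of the 100 libraries and was called in no comparison of WT.

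**Figure D2:**
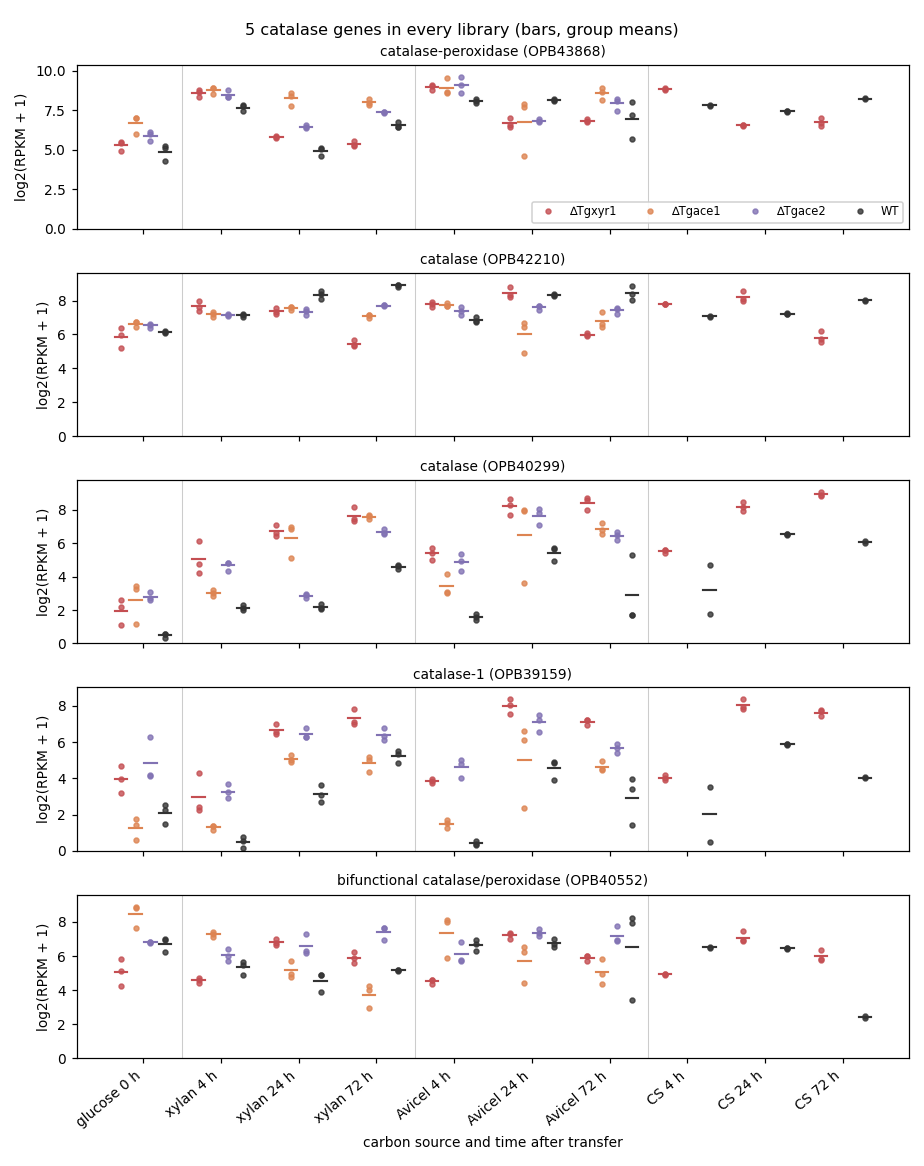
Levels of the 5 expressed catalase genes as log2(RPKM + 1) in every library (points) by carbon source and time, with bars for group means and mutants left of WT. OPB40299 and OPB39159 in ∆Tgxyr1 lie above WT in most conditions, OPB42210 in WT climbs with time on xylan, and the Avicel 72 h group of WT is split.

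Among the superoxide dismutase genes, the Cu,Zn superoxide dismutase-like gene OPB42005 rose on xylan in WT. It had 22.3, 34.2 and 23.5 RPKM at 4 h and 33.3, 20.4 and 32.4 RPKM at 24 h, against 3.06, 2.06 and 2.17 RPKM on glucose, with log2 differences of 2.998 and 3.09 (limma adjusted p = 3.87e-12 and 2.33e-12). At 72 h it had 5.06, 3.98 and 7.11 RPKM and was not called, though each of these libraries still lay above every glucose library. The iron superoxide dismutase OPB42955 fell on Avicel at 24 h, to 32.8, 32.1 and 34.0 RPKM, against 183, 186 and 200.2 RPKM on glucose (log2 difference -2.49, standard error 0.30, adjusted p = 9.33e-11). It also fell under CS at 72 h, to 38.0 and 40.5 RPKM (log2 difference -2.24, standard error 0.34, adjusted p = 3.96e-08). The canonical Cu,Zn enzyme OPB41595, which matches SOD1, differed by -0.71 to 0.68 over the 9 comparisons, and the copper chaperone for superoxide dismutase OPB40973, which delivers copper to that enzyme, by -1.35 to 0.72. Neither was called.

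The glutathione peroxidase OPB37360, the most abundant member on average, was called in 1 of the 9 WT comparisons, lower under CS at 72 h. It had 93.7 and 112 RPKM there, against 565, 609.8 and 534 RPKM on glucose (log2 difference -2.46, standard error 0.33, adjusted p = 2.44e-09). Its other 8 differences lay between -1.51 and -0.32. Glutathione reductase (OPB42195), which restores reduced glutathione, had its lowest WT values on xylan at 72 h, 12.0, 7.78 and 9.09 RPKM, against 28.5, 30.5 and 21.4 RPKM on glucose, and was not called (log2 difference -1.39, standard error 0.29, adjusted p = 2.98e-05). Glutathione synthase (OPB39351), the enzyme of the last step of glutathione synthesis, differed by -0.62 to 1.04 and was not called.

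Of the 5 glutaredoxins, small enzymes that reduce disulfides with glutathione, 2 fell in WT. OPB43849 had 111, 109 and 94.5 RPKM on Avicel at 24 h and 78.8 and 80.5 RPKM under CS at 72 h, against 575, 576 and 514 RPKM on glucose. The differences were -2.40 and -2.78 (limma adjusted p = 6.57e-10 and 2.34e-10). OPB37022 fell under CS at 72 h, to 2.08 and 5.13 RPKM, against 28.3, 51.6 and 21.9 RPKM on glucose (log2 difference -2.92, standard error 0.53, adjusted p = 2.53e-06). The glutaredoxins OPB44832, OPB39548 and OPB43723 differed by -1.21 to -0.14, -1.54 to -0.66 and -0.62 to 0.13 and were not called.

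The thioredoxin reductase OPB37640 spanned 0.218 to 134 RPKM in WT. On Avicel it went through 15.8, 13.4 and 14.3 RPKM at 4 h and 2.04, 2.30 and 1.32 RPKM at 24 h, and under CS through 6.53 and 7.71 RPKM at 4 h, 1.77, 3.28 and 1.76 RPKM at 24 h and 0.218 and 0.307 RPKM at 72 h, against 54.0, 49.2 and 38.8 RPKM on glucose. It was called lower on Avicel at 24 h (log2 difference -4.07, standard error 0.61, adjusted p = 3.33e-08) and at all 3 times of CS, with differences of -2.56, -3.91 and -5.25. The call at CS 4 h was lost with either of its 2 libraries left out (-2.46 and -2.67). On xylan the same gene had 134, 103 and 114 RPKM at 72 h, above every glucose library, and was not called (log2 difference 1.29, standard error 0.61, adjusted p = 0.0609). On Avicel at 72 h replicates 1 and 3 had 52.0 and 61.4 RPKM and replicate 2 had 0.446 RPKM. The second thioredoxin reductase, OPB44308, named after cys-9 of *N. crassa*, differed by -1.65 to -0.73 and was not called.

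Thioredoxins pass electrons from thioredoxin reductase to their targets. The thioredoxin-like protein OPB44817, named after a *Fusarium culmorum* protein, fell on xylan and under CS. It had 205, 205 and 193 RPKM on xylan at 24 h and 199 and 181 RPKM under CS at 72 h, against 1915, 1878 and 1437 RPKM on glucose, with differences of -3.10 and -3.18 (limma adjusted p = 1.73e-08 and 7.55e-08). It was also called lower on xylan at 72 h and under CS at 4 h, and on Avicel its libraries at 4 h and 24 h lay below every glucose library without a call. OPB43288 was called lower on xylan at 72 h (log2 difference -2.03, standard error 0.37, adjusted p = 1.91e-06), a call lost without glucose replicate 1 (-1.97), glucose replicate 2 (-1.96) or xylan replicate 2 (-1.82). OPB41006 and OPB35968 differed by -1.75 to -0.32 and -0.57 to 0.24, and the DSBA-like OPB41286 by -0.10 to 0.30, none of them called.

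Of the 29 glutathione transferases tested, 7 were called lower and 1 higher in WT in at least 1 of the 9 comparisons, beside 15.1% lower and 17.5% higher of all genes. The microsomal transferase OPB45063, of the membrane-bound kind, fell the furthest. At 72 h it had 2.57, 0.823 and 0 RPKM on xylan, where 1 library was listed at 0, and 1.13 and 0.212 RPKM under CS, against 103, 91.6 and 93.0 RPKM on glucose. It was called lower in all 9 comparisons, by -5.91 under CS at 72 h and -5.70 on xylan at 72 h (limma adjusted p = 4.87e-13 and 1.03e-14). The smallest of its 9 falls, under CS at 4 h (-2.44), was not called without WT CS 4 h replicate 2 (-2.15).

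The most abundant transferase, OPB43821, was called lower in 6 of the 9 comparisons and higher in none. On xylan at 24 h it had 1780.0, 2393 and 2431 RPKM and on Avicel at 24 h 252, 299 and 154 RPKM, against 946, 1021 and 1354 RPKM on glucose. The difference on xylan did not reach the limits (log2 difference 0.99, standard error 0.50, adjusted p = 0.0971), and the fall on Avicel was called (log2 difference -2.27, standard error 0.50, adjusted p = 7.16e-05) but not without WT Avicel 24 h replicate 3 (-1.99). By 72 h on xylan the gene was lower, at 302, 222 and 235 RPKM (log2 difference -2.12, standard error 0.50, adjusted p = 0.000172), a call lost without glucose replicate 3 (-1.97). It was also lower on Avicel at 4 h (log2 difference -2.35, standard error 0.50, adjusted p = 7.34e-05). Under CS at 72 h the gene was down to 32.1 and 32.9 RPKM (log2 difference -5.03, standard error 0.55, adjusted p = 5.82e-12), and its calls under CS at 4 h (-2.26) and 24 h (-2.02) were lost without CS 4 h replicate 1 (-2.18) and without glucose replicate 3 (-1.87) or CS 24 h replicate 3 (-1.98). OPB42809 was called lower in 5 of the 9 comparisons. It fell on xylan at 72 h, to 1.51, 3.70 and 6.31 RPKM, and under CS at 24 h, to 2.10, 2.37 and 2.25 RPKM, against 48.4, 47.9 and 21.9 RPKM on glucose, by -3.11 and -3.56. Its call on Avicel at 72 h (-2.13) was lost without glucose replicate 1 (-1.94), glucose replicate 2 (-1.95) or Avicel replicate 2 (-1.97). OPB41949 was the transferase that rose, with 192, 177 and 168 RPKM on xylan at 4 h against 34.1, 39.7 and 19.7 RPKM on glucose (log2 difference 2.54, standard error 0.38, adjusted p = 3.76e-08). Its further calls, on xylan at 72 h and Avicel at 24 h, were lost without glucose replicate 3 (1.97 and 1.75), and that on Avicel also without Avicel replicate 2 (1.99). OPB44988, OPB47114, OPB38487 and OPB46000 were called lower in 1, 1, 1 and 2 of the 9 comparisons. Those of OPB46000, under CS at 4 h and 24 h, were lost without glucose replicate 2 (-1.85 and -1.73), and each also with other single libraries left out. OPB38487 had 4.53, 3.58 and 49.5 RPKM on glucose, and its call on Avicel at 24 h (-2.06) was lost without glucose replicate 3 (-0.95), Avicel replicate 2 (-1.94) or Avicel replicate 3 (-2.03).

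**Figure D3:**
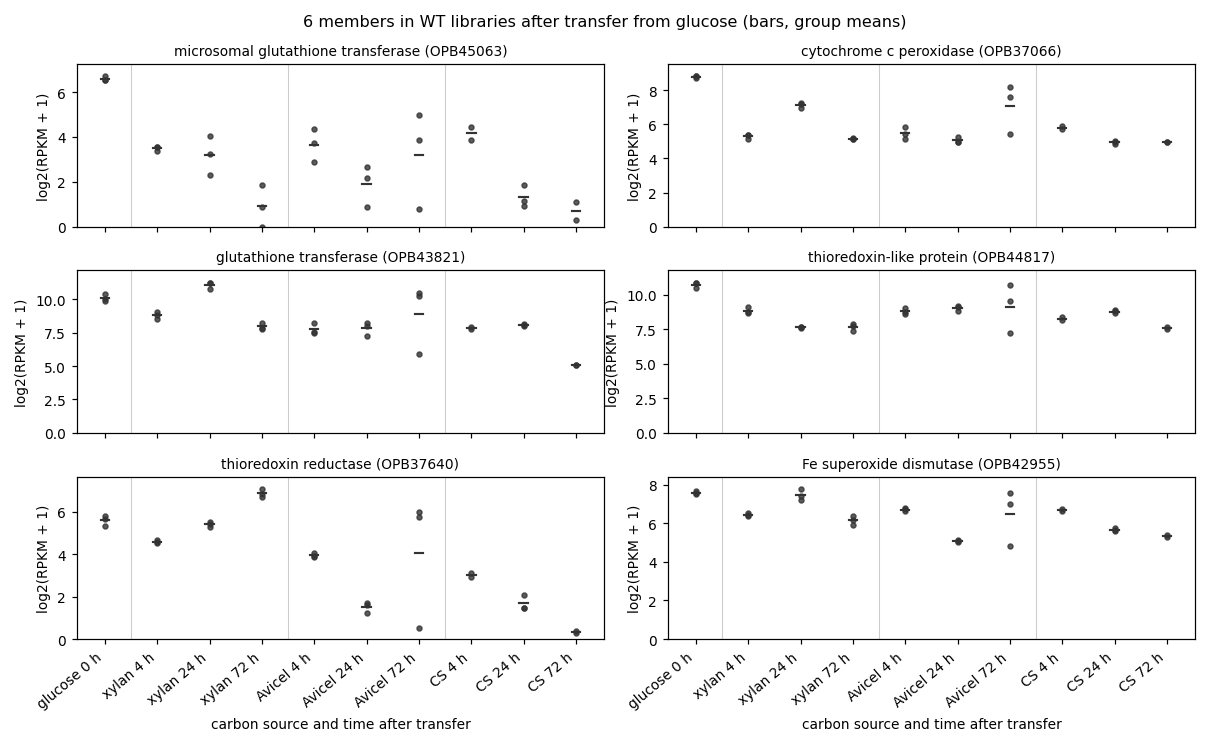
Levels of 6 members as log2(RPKM + 1) in each WT library (points) by carbon source and time, with bars for group means. OPB45063 and OPB37066 are highest on glucose, and OPB37640 is lowest under CS at 72 h and in 1 library on Avicel at 72 h.

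Glutathione also carries formaldehyde, which its dehydrogenase oxidises as S-(hydroxymethyl)glutathione. The dehydrogenase gene OPB37466 had 248, 218 and 215 RPKM on xylan at 4 h and 162, 158 and 216 RPKM on Avicel at 24 h, against 33.2, 29.5 and 22.1 RPKM on glucose, by 2.98 and 2.62 (limma adjusted p = 6.34e-17 and 1.09e-14). It was called higher in 4 of the 9 comparisons, of which that under CS at 72 h was lost without glucose replicate 3 (1.98). Its lowest library after the move lay above its highest on glucose. The second gene of this name, OPB45479, was called higher on xylan at 24 h (log2 difference 2.24, standard error 0.41, adjusted p = 4.8e-06) and under CS at 72 h (log2 difference 2.09, standard error 0.45, adjusted p = 6.1e-05), and these calls were lost without xylan replicate 2 (1.98) and without glucose replicate 3 (1.98).

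The formaldehyde-activating gene OPB44394 was called at 4 h and at no later time in WT. At 4 h it had 9.99, 6.49 and 11.5 RPKM on xylan, 28.2, 13.7 and 26.2 RPKM on Avicel and 33.9 and 38.2 RPKM under CS, against 1.57, 1.499 and 0.397 RPKM on glucose. The 3 differences were 2.28, 3.45 and 4.15, all called, and that on xylan was lost without glucose replicate 3 (1.99). At 24 h and 72 h it was at 0.393 to 5.60 RPKM on all 3. OPB43672, of the same family, was called higher under CS at 72 h, with 12.7 and 11.2 RPKM against 0.211, 1.32 and 1.61 RPKM (log2 difference 2.73, standard error 0.43, adjusted p = 1.25e-07). Hydroxyacylglutathione hydrolase (OPB40046), the second enzyme of the glyoxalase system, differed by -0.11 to 1.11 and was not called, nor were OPB37866, OPB36643 and OPB45481.

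Of the other peroxidases, cytochrome c peroxidase (OPB37066), which in yeast removes hydrogen peroxide with electrons from cytochrome c, was lower in most comparisons. At 4 h it had 40.7, 40.1 and 34.6 RPKM on xylan, 34.5, 57.1 and 41.9 RPKM on Avicel and 57.6 and 51.5 RPKM under CS, against 447, 426 and 450.2 RPKM on glucose. It was called lower in 7 of the 9 comparisons, with differences from -3.83 to -2.99, and in the other 2 comparisons xylan at 24 h gave 148, 125 and 150.1 RPKM and Avicel at 72 h gave 197, 42.1 and 289 RPKM. On Avicel at 72 h replicate 2 was the lowest of the 3. The chloroperoxidase OPB44911, of a family of heme enzymes that can halogenate substrates, fell on xylan at 24 h to 1.84, 0.246 and 2.07 RPKM, against 12.3, 10.6 and 15.3 RPKM on glucose (log2 difference -2.62, standard error 0.52, adjusted p = 2.28e-05), and at 72 h (log2 difference -2.36, standard error 0.52, adjusted p = 6.86e-05). The heme peroxidase OPB36469 and the chloroperoxidase OPB46006 differed by up to 1.62 and 1.49 and were not called, nor were OPB45110, OPB45818 and OPB47100.

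Avicel and xylan were compared at the same time in WT. Avicel had 5 members higher and 8 lower than xylan at 1 or more times, beside 7.27% and 12.4% of all genes, and at 24 h 4 higher (4.66%) and 6 lower (7.78%). At 24 h the catalase-peroxidase OPB43868 had 281, 272 and 295 RPKM on Avicel, against 33.8, 23.5 and 31.5 RPKM on xylan (log2 difference 3.23, standard error 0.37, adjusted p = 4.15e-11). The catalases OPB40299 and OPB40552 were higher on Avicel by 3.25 and 2.19. The second of these calls was lost without WT xylan 24 h replicate 2 (1.84), and so was that of the formaldehyde-activating OPB43672 (2.14) without replicate 3 of the same group (1.88).

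Lower on Avicel at 24 h were the thioredoxin reductase OPB37640 (2.04, 2.30 and 1.32 RPKM on Avicel against 37.5, 42.0 and 45.2 RPKM on xylan, log2 difference -3.90, standard error 0.61, adjusted p = 1.13e-07) and the transferase OPB43821 (log2 difference -3.26, standard error 0.50, adjusted p = 6.47e-08). The transferase OPB38487 had 2.18, 1.22 and 1.51 RPKM on Avicel and 23.3, 32.0 and 38.6 RPKM on xylan (log2 difference -3.60, standard error 0.62, adjusted p = 1.02e-06). The iron superoxide dismutase OPB42955, cytochrome c peroxidase OPB37066 and the glutaredoxin OPB43849 were lower by -2.38, -2.08 and -2.06, the last not without WT xylan 24 h replicate 2 (-1.90) or Avicel replicate 3 (-1.99). At 4 h the Cu,Zn superoxide dismutase-like OPB42005 was the called member, with 3.97, 3.45 and 3.37 RPKM on Avicel against 22.3, 34.2 and 23.5 RPKM on xylan (log2 difference -2.57, standard error 0.33, adjusted p = 1.79e-08). At 72 h, OPB37640 and OPB39159 were lower and OPB45063 higher on Avicel. The call of OPB37640 was lost without WT Avicel 72 h replicate 2 (-1.03) and that of OPB39159 without replicate 1 (-1.57). That of OPB45063 (2.31) was lost without Avicel replicate 1 (1.43), Avicel replicate 3 (1.98) or xylan replicate 3 (1.86). Without WT Avicel 72 h replicate 2, 9 members were higher on Avicel in place of 5.

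The mutants were each compared with WT in the same condition, so the 3 sets of comparisons share the WT libraries. ∆Tgxyr1 had 17 members higher and 15 lower than WT in 1 or more of 10 conditions, beside 21.0% and 17.4% of all genes. ∆Tgace1 had 12 higher and 5 lower in 1 or more of 7 conditions, beside 12.0% and 15.5% of all genes, and without WT Avicel 72 h replicate 2 it had 8 lower. ∆Tgace2 had 9 higher and 6 lower, beside 12.3% and 8.46%. The median log2 difference of the tested members ran from -0.14 to 0.30 in ∆Tgxyr1, from 0.14 to 0.52 in ∆Tgace1 and from 0.06 to 0.38 in ∆Tgace2, and that of all genes from -0.04 to 0.04, from 0.0035 to 0.14 and from 0 to 0.07.

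**Figure D4:**
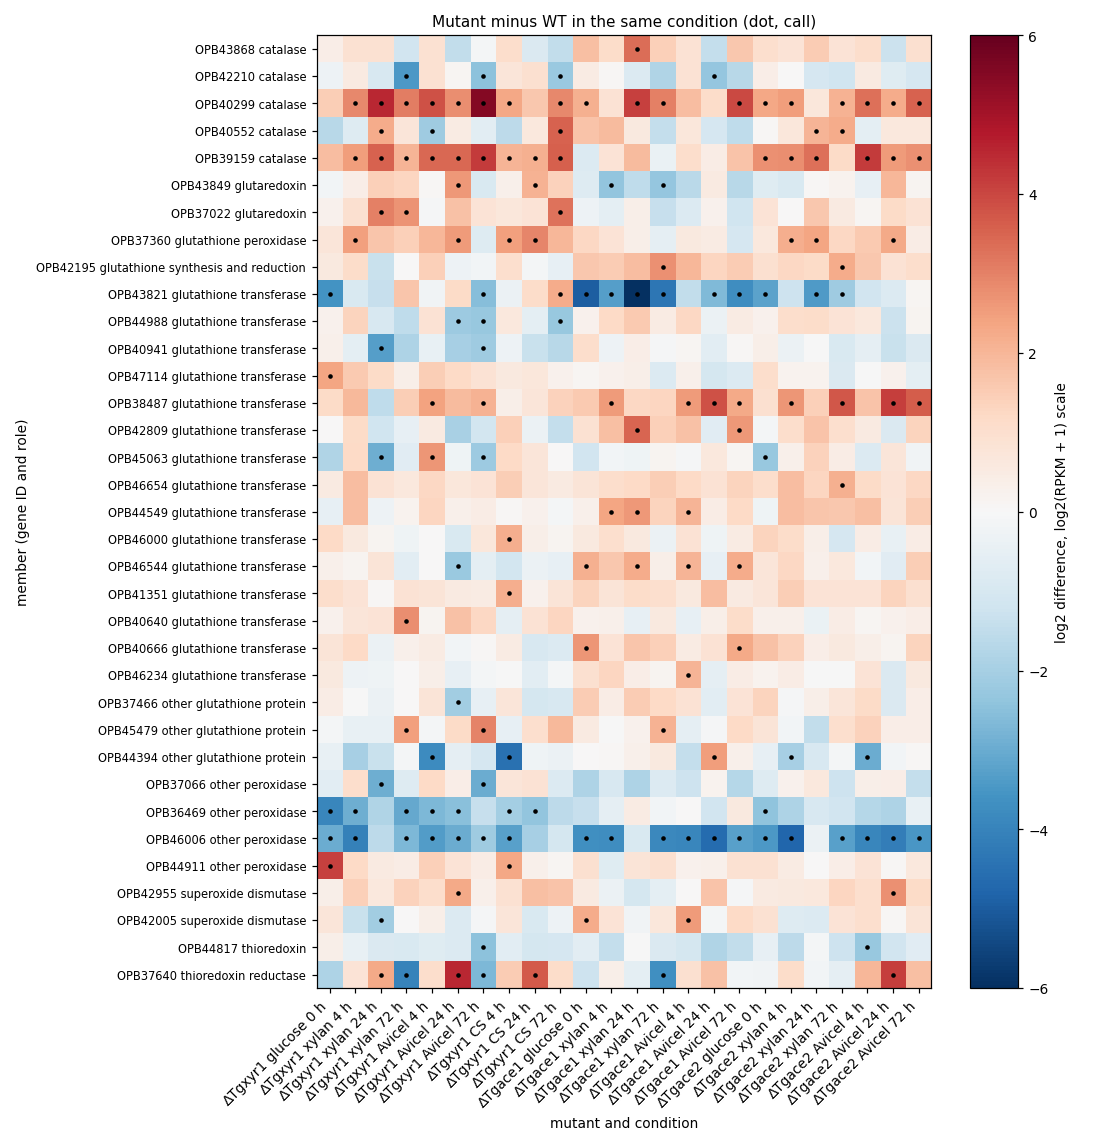
Log2 differences, on the log2(RPKM + 1) scale, between each mutant and WT in the same condition (columns) for the 35 members called in at least 1 of these comparisons (rows, gene ID and role). Red is higher and blue lower than WT, and a dot marks a call. The chloroperoxidase OPB46006 is blue in every column, with dots in 19 of 24, and the catalases OPB40299 and OPB39159 carry 33 of the 95 dots for higher levels.

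Of the catalases, OPB40299 was called higher than WT in ∆Tgxyr1 in 8 of 10 conditions, in ∆Tgace2 in 6 of 7 and in ∆Tgace1 in 4 of 7. On xylan at 24 h it had 137, 97.2 and 85.4 RPKM in ∆Tgxyr1 and 112, 33.3 and 123 RPKM in ∆Tgace1, against 3.27, 4.20 and 3.15 RPKM in WT, by 4.54 and 4.12 (limma adjusted p = 2.14e-09 and 4.34e-08). The 33.3 RPKM came from ∆Tgace1 replicate 2, whose closest library was of ∆Tgace2 on xylan at 24 h. In ∆Tgace2 OPB40299 had 5.57, 6.91 and 6.37 RPKM in this condition and was not called. The highest level of this gene was in ∆Tgxyr1 under CS at 72 h, 466, 534 and 454 RPKM, against 68.7 and 62.9 RPKM in WT (log2 difference 2.86, standard error 0.69, adjusted p = 0.00041). On Avicel at 24 h ∆Tgace2 had 263, 224 and 136 RPKM, against 50.6, 49.6 and 29.2 RPKM in WT, a call lost without WT replicate 3 (1.98) or ∆Tgace2 replicate 1 (2.03). In ∆Tgace1 the same condition had 11.1, 246 and 249 RPKM and was not called, and the lowest of these values came from replicate 1, a library closest to another group. In ∆Tgace2 the calls on glucose and on xylan at 72 h, and in ∆Tgace1 that on glucose, were each lost with more than 1 of the single libraries left out, at log2 differences of 1.74 to 2.34. In ∆Tgxyr1 the call under CS at 4 h was lost without WT replicate 2 (0.84).

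Catalase-1 (OPB39159) was called higher in ∆Tgxyr1 in 9 of 10 conditions and in ∆Tgace2 in 6 of 7, and in ∆Tgace1 in none. On Avicel at 4 h it had 12.3, 14.6 and 13.2 RPKM in ∆Tgxyr1 and 15.0, 27.2 and 31.1 RPKM in ∆Tgace2, against 0.453, 0.247 and 0.321 RPKM in WT, by 3.42 and 4.19 (limma adjusted p = 9.71e-07 and 9.5e-09). Both mutants lay above every WT library, and ∆Tgace1 had 1.92, 1.37 and 2.23 RPKM. At 24 h on Avicel the values were 189, 328 and 266 RPKM in ∆Tgxyr1 and 183, 149 and 91.6 RPKM in ∆Tgace2, against 28.1, 28.8 and 13.9 RPKM in WT. Under CS at 4 h the call was lost without WT replicate 2 (0.51) and on xylan at 4 h without ∆Tgxyr1 replicate 2 (1.87). The calls in ∆Tgxyr1 on xylan at 72 h (without replicate 1, 1.79) and under CS at 24 h (without replicate 2, 1.99) and in ∆Tgace2 on Avicel at 72 h (without WT replicate 1, 1.97) also depended on single libraries.

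The spore marker conidiation-specific protein 10 (OPB41395) was high in several of the same groups. It had 94.8 to 716 RPKM in ∆Tgxyr1 and 179 to 355 RPKM in ∆Tgace2, against 0 to 32.5 RPKM in WT, on Avicel at 24 h, and 733 to 877 RPKM in ∆Tgxyr1, against 0 RPKM in all 3 WT libraries, on xylan at 72 h. On Avicel and xylan at 4 h, where OPB39159 was also higher in ∆Tgxyr1 and ∆Tgace2, it was listed at 0 in every library of ∆Tgxyr1, ∆Tgace2 and WT. Summed over the 7 spore-related genes, ∆Tgxyr1 had 53.1 to 59.8 RPKM, ∆Tgace2 53.4 to 90.2 RPKM and WT 58.1 to 64.5 RPKM on Avicel at 4 h. On xylan at 4 h ∆Tgxyr1 had 42.3 to 49.4 RPKM, ∆Tgace2 48.0 to 59.2 RPKM and WT 61.6 to 63.2 RPKM. On Avicel at 24 h ∆Tgxyr1 had 163 to 785 RPKM, ∆Tgace2 252 to 441 RPKM and WT 102 to 134 RPKM. These sums include OPB41395, so they are not a separate measure. At its highest on Avicel at 24 h, OPB41395 alone had 716 RPKM in ∆Tgxyr1, 355 RPKM in ∆Tgace2 and 32.5 RPKM in WT. Under CS at 24 h OPB41395 had 472 to 695 RPKM in ∆Tgxyr1, against 32.2 to 69.9 RPKM in WT. The part of the 7 spore-related genes in the differences of OPB39159, or of the other members described below, was not tested.

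The catalase OPB42210, which climbed in WT, was lower in ∆Tgxyr1 at 72 h. On xylan it had 41.2, 49.7 and 39.1 RPKM in ∆Tgxyr1, against 483, 448 and 488 RPKM in WT (log2 difference -3.43, standard error 0.23, adjusted p = 1.09e-21). The same was called on Avicel at 72 h (-2.46) and under CS at 72 h, with 71.3, 52.2 and 45.4 RPKM against 263 and 254 RPKM (-2.21). At 4 h and 24 h it was not called in ∆Tgxyr1. In ∆Tgace1 on Avicel at 24 h it had 28.8, 86.9 and 101 RPKM, against 320.4, 305 and 334 RPKM in WT (-2.31), and the call was lost without ∆Tgace1 replicate 1 (-1.76).

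The catalase-peroxidase OPB43868 was called in 1 of the 24 comparisons with WT, in ∆Tgace1 on xylan at 24 h, with 345, 219 and 386 RPKM against 33.8, 23.5 and 31.5 RPKM (log2 difference 3.35, standard error 0.37, adjusted p = 1.09e-11). OPB40552 had 81.8, 53.1 and 54.8 RPKM in ∆Tgxyr1 under CS at 72 h, against 4.16 and 4.53 RPKM in WT (log2 difference 3.56, standard error 0.61, adjusted p = 1.33e-06), and on Avicel at 4 h it was lower in ∆Tgxyr1 (-2.13, and -1.98 and not called without WT replicate 2). In ∆Tgace2 it was higher on xylan at 72 h, with 198, 197 and 123 RPKM against 35.5, 34.9 and 34.0 RPKM (log2 difference 2.25, standard error 0.54, adjusted p = 0.000423). OPB47062, with means of at most 3.02 RPKM, was called in none.

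The chloroperoxidase OPB46006 was lower than WT in all 3 mutants, called in 7 of 10 conditions in ∆Tgxyr1, 6 of 7 in ∆Tgace1 and 6 of 7 in ∆Tgace2. On glucose it had 5.38, 5.60 and 2.53 RPKM in ∆Tgxyr1, 2.73, 2.72 and 1.41 RPKM in ∆Tgace1 and 1.33, 3.503 and 4.17 RPKM in ∆Tgace2, against 46.8, 43.2 and 32.2 RPKM in WT. The differences there were -2.96, -3.68 and -3.45, with standard error 0.34 and limma adjusted p of 1.12e-10, 5.83e-14 and 9.96e-13. On xylan at 4 h ∆Tgxyr1 had 4.98, 6.91 and 4.01 RPKM, ∆Tgace1 6.35, 5.12 and 9.46 RPKM and ∆Tgace2 2.13, 2.76 and 3.65 RPKM, against 101, 106 and 98.3 RPKM in WT. At 24 h on xylan the gap was narrower, with 18.8, 36.1 and 19.7 RPKM in ∆Tgace1 and 29.7, 37.8 and 36.7 RPKM in ∆Tgace2, against 42.8, 39.6 and 53.9 RPKM in WT, and no mutant was called. The call in ∆Tgxyr1 on Avicel at 72 h was lost without WT replicate 3 (-1.68). All 3 mutants carry *hph* and WT does not, so what the deleted genes and the marker or the transformation each contribute cannot be told apart in a difference that the mutants have in common.

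The heme peroxidase OPB36469 was lower mainly in ∆Tgxyr1, where it was called in 7 of 10 conditions. On glucose it had 2.50, 1.91 and 2.52 RPKM in ∆Tgxyr1, against 52.5, 52.7 and 41.3 RPKM in WT (log2 difference -3.91, standard error 0.38, adjusted p = 5.31e-13), and on xylan at 72 h 19.1, 18.8 and 13.5 RPKM against 147, 137 and 173 RPKM (log2 difference -3.09, standard error 0.38, adjusted p = 1.61e-10). In ∆Tgace2 it was called on glucose, with 6.87, 7.87 and 10.3 RPKM (log2 difference -2.42, standard error 0.38, adjusted p = 1.02e-06). In ∆Tgace1 no condition was called, and the glucose libraries had 43.4, 45.6 and 2.36 RPKM, the last of them a library closest to another group. The chloroperoxidase OPB44911 was higher in ∆Tgxyr1 on glucose, with 86.4, 357 and 409 RPKM against 12.3, 10.6 and 15.3 RPKM in WT (log2 difference 4.11, standard error 0.52, adjusted p = 2.05e-09). Of the 4 calls of OPB44911 in WT and mutants, 2 were kept under every alternative of the processing and with each library left out. In ∆Tgxyr1 cytochrome c peroxidase (OPB37066) was lower than in WT on xylan at 24 h (log2 difference -2.94, standard error 0.43, adjusted p = 2.33e-08) and on Avicel at 72 h (-2.95).

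**Figure D5:**
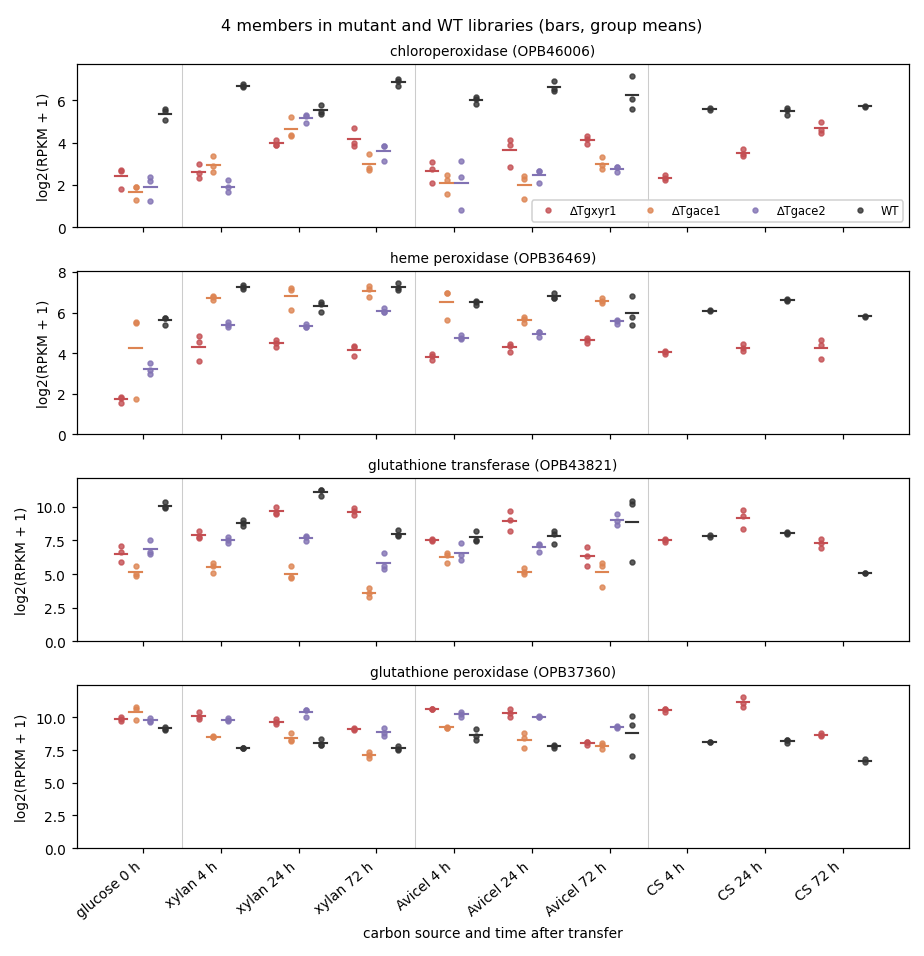
Levels of 4 members as log2(RPKM + 1) in every library (points) by carbon source and time, with bars for group means and mutants left of WT. OPB46006 in the mutants lies below WT on glucose, OPB36469 is lowest in ∆Tgxyr1 on glucose, OPB43821 is lowest in ∆Tgace1 on xylan at 72 h, and OPB37360 is highest in ∆Tgxyr1 under CS at 24 h.

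The glutathione peroxidase OPB37360 was higher in ∆Tgxyr1 in 4 of 10 conditions and in ∆Tgace2 in 3 of 7, and in ∆Tgace1 it was not called. Under CS at 24 h it had 2183, 3016 and 1759 RPKM in ∆Tgxyr1, against 301, 268 and 310.3 RPKM in WT (log2 difference 2.95, standard error 0.30, adjusted p = 2.81e-13). On xylan at 24 h ∆Tgace2 had 1492, 1497 and 1068 RPKM, against 231, 318 and 239 RPKM in WT (log2 difference 2.36, standard error 0.30, adjusted p = 1.45e-09). The libraries of the mutant and of WT did not overlap in either case. Glutathione reductase (OPB42195) was higher on xylan at 72 h in ∆Tgace1, with 65.6, 70.0 and 70.5 RPKM, and in ∆Tgace2, with 48.5, 48.0 and 46.9 RPKM, against 12.0, 7.78 and 9.09 RPKM in WT, by 2.73 and 2.22 (limma adjusted p = 8.15e-13 and 1.44e-09). In ∆Tgxyr1 it had 9.61, 9.58 and 9.72 RPKM in that condition. Glutathione synthase (OPB39351) differed by -1.57 to 1.46 over the 24 comparisons and was not called.

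The thioredoxin reductase OPB37640 moved in both directions in ∆Tgxyr1. On Avicel at 24 h it had 77.0, 31.7 and 109 RPKM, and 48.7, 57.6 and 44.6 RPKM in ∆Tgace2, against 2.04, 2.30 and 1.32 RPKM in WT, by 4.52 and 4.16 (limma adjusted p = 1.85e-09 and 2.63e-08). On xylan at 72 h it had 4.18, 8.64 and 7.17 RPKM in ∆Tgxyr1 and 13.2, 3.77 and 10.53 RPKM in ∆Tgace1, against 134, 103 and 114 RPKM in WT, by -3.99 and -3.67. On that substrate ∆Tgxyr1 lay above WT at 24 h (2.25) and below it at 72 h. The fall on Avicel at 72 h (-2.72) was not called without WT replicate 1 (-1.89) or WT replicate 3 (-1.77). The thioredoxin reductase OPB44308 and the 4 thioredoxins other than OPB44817 were called in none of the 24 comparisons. OPB44817 was lower in ∆Tgxyr1 on Avicel at 72 h (-2.48), lost without WT replicate 1 (-1.71), and in ∆Tgace2 on Avicel at 4 h (-2.25), lost without ∆Tgace2 replicate 2 (-1.90).

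Of the glutaredoxins, OPB37022 was higher in ∆Tgxyr1 on xylan, with 185, 181 and 176 RPKM at 24 h against 23.4, 15.9 and 25.7 RPKM in WT (log2 difference 3.03, standard error 0.47, adjusted p = 9.36e-08), and likewise at 72 h (2.69) and under CS at 72 h (3.27). OPB43849 was higher in ∆Tgxyr1 on Avicel at 24 h, with 644, 529.5 and 784 RPKM against 111, 109 and 94.5 RPKM (log2 difference 2.62, standard error 0.31, adjusted p = 4.03e-11), and lower in ∆Tgace1 on xylan at 4 h, with 133, 114 and 177 RPKM against 794, 764 and 613 RPKM (log2 difference -2.36, standard error 0.31, adjusted p = 2.52e-09). OPB44832, OPB39548 and OPB43723 were called in none of the 24 comparisons. Among the superoxide dismutase genes, the iron enzyme OPB42955 was higher on Avicel at 24 h in ∆Tgxyr1, with 169, 147 and 179 RPKM, and in ∆Tgace2, with 183, 218 and 284 RPKM, against 32.8, 32.1 and 34.0 RPKM in WT, by 2.29 and 2.73. In ∆Tgxyr1 OPB42005 was lower than in WT on xylan at 24 h (-2.10), a call lost without ∆Tgxyr1 replicate 3 (-1.84), WT replicate 1 (-1.98) or WT replicate 3 (-2.00). It was higher in ∆Tgace1 on Avicel at 4 h, with 47.9, 8.76 and 40.5 RPKM against 3.97, 3.45 and 3.37 RPKM (2.56, and without the low replicate 2, a library closest to another group, 3.30). OPB41595 and OPB40973 were not called in any mutant.

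Among the glutathione transferases, OPB43821 was called lower in ∆Tgace1 in 6 of 7 conditions. On xylan at 24 h it had 25.3, 46.6 and 26.2 RPKM in ∆Tgace1 and 232, 211 and 176 RPKM in ∆Tgace2, against 1780.0, 2393 and 2431 RPKM in WT, by -6.07 and -3.40 (limma adjusted p = 7.74e-17 and 8.66e-08). On glucose all 3 mutants were called lower, with 57.6, 133 and 98.1 RPKM in ∆Tgxyr1, 27.7, 31.2 and 47.2 RPKM in ∆Tgace1 and 101, 88.3 and 184 RPKM in ∆Tgace2, against 946, 1021 and 1354 RPKM in WT. In ∆Tgxyr1 it was higher than WT under CS at 72 h (2.21), a call lost without WT CS 72 h replicate 1 (2.19) or replicate 2 (2.23), and lower on Avicel at 72 h (-2.56), lost without WT replicate 1 (-1.76) or replicate 3 (-1.87).

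The transferase OPB38487 was higher in ∆Tgace2 and in ∆Tgace1, in 4 of 7 conditions each. In ∆Tgxyr1 it was also called higher, in 2 of 10 conditions, on Avicel at 4 h and 72 h. Of its 12 calls in WT and mutants, 6 were kept under every alternative of the processing and with each library left out. On xylan at 72 h it had 126, 137 and 67.0 RPKM in ∆Tgace2, against 6.60, 10.01 and 4.996 RPKM in WT (log2 difference 3.74, standard error 0.62, adjusted p = 6.17e-07). On Avicel at 24 h ∆Tgace1 had 143, 12.9 and 23.7 RPKM and ∆Tgace2 had 23.5, 45.2 and 89.9 RPKM, against 2.18, 1.22 and 1.51 RPKM in WT, with the high ∆Tgace1 value in a library closest to another group (without it, 2.83 in place of 3.81). On Avicel at 72 h the call in ∆Tgace1 was lost without ∆Tgace1 replicate 3 (1.26) or WT replicate 2 (1.75). OPB42809 was higher in ∆Tgace1 on xylan at 24 h, with 66.9, 71.9 and 68.9 RPKM against 5.69, 2.23 and 10.53 RPKM (log2 difference 3.48, standard error 0.50, adjusted p = 1.61e-08), and OPB44549 in the same cultures (2.61). Of the 3 calls of OPB44549, 1 was kept under every alternative of the processing and with each library left out. OPB46544, a low gene, was called higher in ∆Tgace1 in 4 of 7 conditions, with differences of 2.04 to 2.23. On Avicel at 72 h it was lost without ∆Tgace1 replicate 1 (1.98) or 2 (1.95), on Avicel at 4 h it was lost without ∆Tgace1 replicate 2 (1.65) and on glucose without ∆Tgace1 replicate 3 (1.60). Of the 5 calls of OPB46544 in the mutants, 0 were kept under every alternative of the processing and with each library left out. In ∆Tgace1 OPB40666 was called higher in 2 of 7 conditions and OPB46234 in 1 of 7. OPB46654 was called higher in ∆Tgace2 in 1 of 7 conditions, and OPB41351 in ∆Tgxyr1 in 1 of 10. Of the calls of these 4 transferases, 0 were kept in the same way. OPB47114 was called higher in ∆Tgxyr1 on glucose.

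In ∆Tgxyr1 the transferase OPB40941 was lower on xylan at 24 h, with 10.7, 7.54 and 6.23 RPKM against 87.0, 89.0 and 85.9 RPKM in WT (log2 difference -3.30, standard error 0.29, adjusted p = 4.69e-16). OPB44988 was lower in ∆Tgxyr1 on Avicel at 24 h, with 24.2, 24.5 and 31.3 RPKM against 116, 123 and 138 RPKM (log2 difference -2.20, standard error 0.38, adjusted p = 1.23e-06). OPB40640 was the transferase with its highest level in ∆Tgxyr1 on xylan at 72 h, 24.1, 12.5 and 16.2 RPKM, against 0.835, 1.37 and 3.19 RPKM in WT (log2 difference 2.77, standard error 0.32, adjusted p = 1.05e-11). The microsomal OPB45063 was higher in ∆Tgxyr1 on Avicel at 4 h, with 90.4, 70.5 and 72.7 RPKM against 6.32, 19.4 and 12.4 RPKM (log2 difference 2.64, standard error 0.54, adjusted p = 6.6e-05), and lower on xylan at 24 h (-2.91). OPB42782 was not called in a mutant, and its level rested on single libraries, with 0.681, 0.224 and 618 RPKM in ∆Tgace1 on glucose and 2.01, 37.6 and 0.680 RPKM on Avicel at 4 h. The libraries with 618 and 37.6 RPKM are both among the 9 closest to another group.

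The formaldehyde-activating OPB44394, which was higher at 4 h than on glucose in WT, was lower than WT at 4 h in ∆Tgxyr1 and ∆Tgace2. It had 0.717, 0.570 and 0.724 RPKM in ∆Tgxyr1 and 1.37, 2.96 and 1.44 RPKM in ∆Tgace2, against 28.2, 13.7 and 26.2 RPKM in WT, on Avicel, by -3.77 and -2.999 (limma adjusted p = 2.98e-13 and 9.54e-10). Under CS at 4 h ∆Tgxyr1 had 0.201, 0.380 and 1.82 RPKM, against 33.9 and 38.2 RPKM in WT (log2 difference -4.46, standard error 0.41, adjusted p = 5.26e-14). In ∆Tgace1 OPB44394 was called higher than WT in 1 of 7 conditions, on Avicel at 24 h. The dehydrogenase OPB45479 was higher in ∆Tgxyr1 at 72 h, with 72.3, 66.8 and 62.4 RPKM on Avicel against 3.49, 14.9 and 7.80 RPKM in WT (log2 difference 2.99, standard error 0.41, adjusted p = 4.1e-09) and a difference of 2.48 on xylan. OPB45479 was also called higher in ∆Tgace1, on xylan at 72 h. Of the 5 calls of OPB45479 in WT and mutants, 1 was kept under every alternative of the processing and with each library left out. The dehydrogenase OPB37466 was lower in ∆Tgxyr1 on Avicel at 24 h, with 40.8, 47.4 and 36.4 RPKM against 162, 158 and 216 RPKM (-2.07), a call lost without WT replicate 3 (-1.93) or ∆Tgxyr1 replicate 3 (-1.98).

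Other genes of redox metabolism were listed by words of their descriptions, for NADPH supply, NADPH oxidase, alternative oxidase, flavohemoglobin and quinone reductases. Of 19 listed, 18 were tested. In WT 3 were higher and 1 lower than at 0 h on xylan, 1 higher and 2 lower on Avicel, and 1 higher and 7 lower under CS. The shares of all genes called higher and lower in the same way were 13.5% and 9.19% on xylan, 8.67% and 7.60% on Avicel, and 10.3% and 11.7% under CS. Against WT, 4 were higher and 4 lower in ∆Tgxyr1, beside 21.0% and 17.4% of all genes, 2 higher and 4 lower in ∆Tgace1, beside 12.0% and 15.5%, and 6 higher and 1 lower in ∆Tgace2, beside 12.3% and 8.46%. The flavohemoglobin OPB41330, of a family that removes nitric oxide, averaged 26407 RPKM on xylan at 24 h, against 1464 RPKM on glucose, in WT. NoxR (OPB40972), the regulator of NADPH oxidase, which makes superoxide, averaged 44.5 RPKM under CS at 72 h, against 470 RPKM on glucose, in WT (log2 difference -3.36). Alternative oxidase (OPB39606), which passes electrons from ubiquinol to oxygen, averaged 6576 RPKM under CS at 72 h in ∆Tgxyr1, against 433 RPKM in WT (log2 difference 3.92).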

How the data were processed

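Gene expression was measured by poly(A) RNA-seq in 100 libraries of 34 groups. The authors filtered paired-end reads with the FASTX-Toolkit, aligned them with Bowtie2 within TopHat2 and quantified them with Cufflinks and Cuffnorm, and the values they deposited are RPKM per gene. The methods name FPKM where the results name RPKM. The Cuffnorm scaling, the tool versions, the annotation release and the use of strand are not given in the sources used here, so close paralogs and overlapping genes may share reads.

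From these values, log2(RPKM + 1) was fitted with limma 3.58.1 in R 4.3.3 (trended variance, 34 group means, 66 residual degrees of freedom, no covariates) over genes with more than 1 RPKM in 2 or more libraries. The limits for a call (adjusted p 0.01 by Benjamini-Hochberg, log2 difference 2, mean 2 RPKM on the higher side) follow those of the authors, who do not state an adjustment of p. The fit was tested on simulated data. Summaries and figures used Python 3.11.15 with numpy 2.4.6, pandas 2.3.3 and matplotlib 3.10.9. Of 17730 low values, 93.3% lay within 5% of a whole number of steps, from which relative depth was taken. Absolute read numbers are unknown, so no counting intervals are given, and no count test was run. No 2 libraries held identical values, and the highest correlation between 2 libraries was 0.996.

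Members were chosen by words of the description. Named were every member of the catalase, superoxide dismutase, glutathione peroxidase, thioredoxin, glutaredoxin and glutathione synthesis roles, up to 5 called members with the largest differences of the other roles in a comparison, and the 5 highest on average. Not every call of a named member is described. Members and lists were chosen with earlier results of these data known. OPB42782 was named after its values were seen. Alternatives were another pseudocount, no filter, median scaling, array weights, unadjusted p, the replicate number as a block, only the compared groups, each library left out and, chosen after seeing the data, leaving out the libraries closest to another group. P-values rest on a single spread per gene, pooled over the libraries within all 34 groups and drawn towards the trend over genes. A group whose libraries disagree is therefore given the same spread as a group whose libraries agree. Sequences were not used here.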

Additional observations from a re-analysis of the deposited data

Results flagged for a closer look

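The response of each member to the move from glucose (24 h against 0 h of the same strain) was compared between each mutant and WT as an interaction term of the limma fit, with the same limits of adjusted p at most 0.01 and a log2 difference of at least 2. A positive value below means that the mutant's response lay above that of WT. Such a term also passes where mutant and WT differed on glucose and less so at 24 h. On glucose they were called different for OPB44911 and OPB36469 in ∆Tgxyr1, OPB42005 and OPB46544 in ∆Tgace1 and OPB45063 in ∆Tgace2. The same was called for OPB46006 in ∆Tgace1 and ∆Tgace2 and for OPB43821 in each mutant. The numbers of the 69 tested members past these limits were 12 on xylan, 10 on Avicel and 7 under CS in ∆Tgxyr1, beside 12.5%, 15% and 10.2% of all genes. In ∆Tgace1 they were 5 on xylan and 11 on Avicel (5.38% and 9.65%), and in ∆Tgace2 3 on xylan and 8 on Avicel (2.32% and 11%). All of these terms share the WT glucose libraries.

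Among the catalases, the xylan response in ∆Tgxyr1 lay above that of WT for OPB40299 (3.06) and for OPB40552 (3.92). Catalase-1 (OPB39159) had the same in ∆Tgace1 (2.73). On Avicel the response in ∆Tgace1 lay below that of WT for OPB40552 (-2.75), OPB42210 (-2.81) and the catalase-peroxidase OPB43868 (-3.22), and in ∆Tgace2 for OPB43868 (-2.33). For the Cu,Zn superoxide dismutase-like OPB42005 the differences were -2.84 on xylan in ∆Tgxyr1, -2.44 on xylan in ∆Tgace1 and -2.34 on Avicel in ∆Tgace1. The iron superoxide dismutase OPB42955 differed by 2.19 on Avicel in ∆Tgace2.

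The thioredoxin reductase OPB37640 had the largest difference of all, 6.37 on Avicel in ∆Tgxyr1, with 4.10 on xylan and 5.53 under CS in the same mutant. On Avicel it differed by 3.02 in ∆Tgace1 and 4.38 in ∆Tgace2. The thioredoxin OPB41006 differed by -2.08 on xylan in ∆Tgxyr1. The glutaredoxin OPB43849 differed by 2.77 on Avicel and 2.24 under CS in ∆Tgxyr1 and by 2.73 on Avicel in ∆Tgace2, and the glutaredoxin OPB37022 by 2.76 on xylan in ∆Tgxyr1. The glutathione peroxidase OPB37360 differed by 2.22 under CS in ∆Tgxyr1.

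Of the glutathione transferases, OPB43821 in ∆Tgxyr1 differed by 2.17 on xylan, 4.72 on Avicel and 4.65 under CS, and on Avicel by 2.30 in ∆Tgace1 and 2.39 in ∆Tgace2. The microsomal OPB45063 differed by 2.51 under CS in ∆Tgxyr1, and in ∆Tgace2 by 3.69 on xylan and 2.998 on Avicel. OPB45427 in ∆Tgxyr1 differed by -2.20 on xylan, -2.33 on Avicel and -2.00 under CS, and OPB40941 by -3.58 on xylan and -2.28 on Avicel. On Avicel in ∆Tgxyr1, OPB44988 differed by -2.45, OPB46544 by -2.54 and OPB46932 by -2.18. In ∆Tgace1 on Avicel, OPB46544 differed by -2.65 and OPB41949 by -2.08, and on xylan OPB42809 by 2.55 and OPB44549 by 2.29. OPB38487 differed by 3.22 on Avicel in ∆Tgace2.

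The formaldehyde dehydrogenase OPB37466 had a smaller Avicel response in each mutant, by -2.50 in ∆Tgxyr1, -2.14 in ∆Tgace1 and -2.21 in ∆Tgace2. The second such gene, OPB45479, differed by -2.22 on xylan in ∆Tgace2, and the formaldehyde-activating OPB44394 by 2.48 on Avicel in ∆Tgace1. The chloroperoxidase OPB44911 in ∆Tgxyr1 differed by -3.57 on xylan, -3.27 on Avicel and -3.80 under CS. Against WT this gene was called higher in ∆Tgxyr1 on glucose and was not called at 24 h. The chloroperoxidase OPB46006 differed on xylan by 2.79 in ∆Tgace1 and 3.07 in ∆Tgace2. The heme peroxidase OPB36469 differed by 2.09 on xylan in ∆Tgxyr1, and cytochrome c peroxidase (OPB37066) by -2.29 on xylan in ∆Tgxyr1 and 2.09 on Avicel in ∆Tgace1.

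Some of these terms rest on libraries that were closest to another group. Every ∆Tgace1 term includes such a library at 0 h (replicate 3), with another at 24 h on xylan (replicate 2) or on Avicel (replicate 1), and the ∆Tgxyr1 terms on Avicel include ∆Tgxyr1 Avicel 24 h replicate 2. With all libraries of this kind left out, an alternative chosen after seeing the data, 4 of the 5 ∆Tgace1 terms on xylan, 6 of the 11 on Avicel and 9 of the 10 ∆Tgxyr1 terms on Avicel still passed the limits. In ∆Tgace1 on xylan OPB44549 then differed by 1.83 and did not pass, while OPB39159 differed by 2.29, OPB42005 by -2.96, OPB42809 by 3.16 and OPB46006 by 2.29. On Avicel in ∆Tgace1 the terms that did not pass were OPB37066 (1.76), OPB37466 (-1.51), OPB37640 (1.80), OPB41949 (-0.36) and OPB46544 (-1.24), and in ∆Tgxyr1 OPB46932 (-1.97). The terms on xylan and under CS in ∆Tgxyr1 and both sets in ∆Tgace2 all passed again.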

How the results depend on the processing

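Of the 262 calls in WT and between mutants and WT, 163 kept their call under every alternative and with each library left out, and none changed direction. The calls lost numbered 55 with only the compared groups in a fit, 34 with a pseudocount of 2, 26 with array weights, 12 without the libraries closest to another group, 7 with a pseudocount of 0.1, 6 with median scaling and 2 with no filter. With 1 library left out in turn, 70 of the 262 calls were lost at least once. The number of members higher on Avicel than on xylan in WT was 5, and became 9 with a pseudocount of 0.1, 3 with a pseudocount of 2, 9 with array weights, 9 without the libraries closest to another group and 4 to 9 with 1 library left out. Members higher in ∆Tgace1 numbered 12, and 22 with a pseudocount of 0.1. Members lower in ∆Tgace1 numbered 5, and 8 with array weights and 4 to 8 with 1 library left out. The other counts stayed within 1.5 times under every alternative run, and the causes were not tested. With the replicate number as a block, 261 of the 262 calls were shared, and the 1 lost was OPB39159 in ∆Tgxyr1 under CS at 4 h. Over all pairs of libraries of different groups, across strains and substrates, deviations of same-numbered libraries had a mean correlation of 0.000446. Those of differently numbered libraries had -0.000237. In 0 of 45 comparisons did every pair of same-numbered libraries exceed 0.1. The methods of the paper describe taking a portion of the fermentation broth at each sampling time. Whether same-numbered libraries of a strain and substrate came from the same culture was not tested. None of the 45 comparisons set 4 h, 24 h and 72 h of a strain and substrate against each other, so the values above cannot show it. Groups of 2 or 3 libraries and an unknown read number limit what low genes can show.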
